A study of Saccharomyces cerevisiae W303 with 86 samples.

Results

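The 9 genes described here, of 7126 features in the files, encode the yeast machinery that brings hydrophobic and cysteine-rich proteins into the intermembrane space and the inner membrane of mitochondria. They were chosen by name: TIM8, TIM9, TIM10, TIM12 and TIM13 (the small TIM chaperones), TIM22 and TIM54 (the TIM22 insertion complex), and MIA40 and ERV1 (the oxidative folding relay of the MIA pathway). The rule reads no measured value, although the genes were chosen with earlier results of these data known, and all 9 passed the filter on low values in every set. Tim9 pairs with Tim10, and Tim8 with Tim13, to carry unfolded membrane proteins across the intermembrane space, the compartment between the outer and inner membranes. Tim12 docks the Tim9 and Tim10 chaperone on the TIM22 complex, where Tim22 forms the insertion channel for metabolite carriers and Tim54 exposes a large domain to the intermembrane space. Mia40 traps small cysteine-rich precursors, the small TIM proteins among them, by forming disulfide bonds with them, and Erv1 reoxidises Mia40 and passes the electrons on to cytochrome c or oxygen.

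The series measured poly(A) mRNA in 78 libraries and ribosome footprints, the mRNA fragments that ribosomes protect, in 8 libraries. All strains derive from the W303-1A background of Saccharomyces cerevisiae and were harvested in mid-log phase from synthetic glucose medium, in which yeast ferments and does not need respiration. The libraries form 29 groups in 7 sets, each set with its own control, and replicates are called biological in the series text (3 per mRNA group, 6 for wild type of the OXPHOS set, 2 per footprint group). The questions were what respiratory defects do to expression and what PUF3, SNF1, MIG1 and INH1 contribute. The OXPHOS set held rho0 cells, labelled as such and known to lack mitochondrial DNA, together with atp7 (ATP synthase), cox9 (cytochrome c oxidase) and cor1 (complex III) deletion strains and wild type. The PUF3 set held atp7 puf3, atp7, puf3 rho0, rho0, puf3 and wild type, where PUF3 encodes an RNA-binding protein that binds messages of mitochondrial proteins. The Puf3-15A set held puf3-15A rho0, puf3-15A, rho0 and wild type, and the series text describes puf3-15A as blocking hyperphosphorylation of Puf3. The SNF1 set held snf1 with ethidium bromide (EB), wild type with EB, snf1 without EB and untreated wild type. SNF1 encodes the yeast AMP-activated kinase, and EB, at 25 µg/ml for 48 h, depletes mitochondrial DNA. The MIG1 set held snf1 mig1 and snf1 cells, both with EB, where MIG1 encodes a glucose repressor. The INH1 set held rho0 CUP1p-INH1 with 10 mM CuSO4 for 12 h as labelled, rho0 CUP1p-INH1 without it, rho0 and wild type, where CUP1p is the copper-induced CUP1 promoter and INH1 encodes an inhibitor of the ATP synthase running in reverse. No group had copper without the construct, so that copper and INH1 cannot be told apart. The footprint set held puf3 rho0, rho0, puf3 and wild type.

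Whole reads recovered from the deposited RPKM values numbered 8622304 to 71107868 per mRNA library and 1149911 to 2983582 per footprint library, and deleted genes stood at no more than 1.77 RPKM in the libraries that lacked them. The mitochondrially encoded COX1 did not exceed 0.340 RPKM in any library labelled rho0 or treated with EB. In the other libraries it was low as well, from 1.16 RPKM in puf3 footprints to 20.2 RPKM in wild type of the INH1 set. INH1 mRNA reached 1909 to 1953 RPKM with CuSO4, against 286 to 301 RPKM without it. Groups differed in genes that are expressed by haploid cells of mating type a. The summed level of 7 such genes was 20.3 to 27.2 RPKM in wild type of the INH1 set, 16.8 to 32.4 RPKM in wild type of the footprint set, 21.8 to 42.3 RPKM in all snf1 and snf1 mig1 libraries and 566 to 830 RPKM in wild type of the PUF3 set, against 1100 to 3046 RPKM in all other libraries. The summed level of 6 genes of haploid cells was low in the same groups, and genes of mating type alpha summed to 3.87 to 61.8 RPKM everywhere. So the comparisons that set mutants against wild type in the PUF3, INH1 and footprint sets, and snf1 cells against SNF1 cells, also set libraries with high levels of these genes against libraries with low levels, and the part of this difference in the results was not tested. In the remaining comparisons these sums were low on both sides or above 1000 RPKM on both sides.

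In genome build R64 the small TIM genes are scattered over 5 chromosomes and are short. TIM8 (YJR135W-A) lies on the W strand of chromosome X from 676971 to 677234, TIM9 (YEL020W-A) on the W strand of chromosome V from 117211 to 117474 and TIM10 (YHR005C-A) on the C strand of chromosome VIII from 115620 to 115901. TIM12 (YBR091C) lies on the C strand of chromosome II from 427155 to 427484 and TIM13 (YGR181W) on the W strand of chromosome VII from 858287 to 858604. TIM22 (YDL217C) lies on the C strand of chromosome IV from 67983 to 68606, TIM54 (YJL054W) on the W strand of chromosome X from 334265 to 335701, MIA40 (YKL195W) on the W strand of chromosome XI from 75821 to 77032 and ERV1 (YGR029W) on the W strand of chromosome VII from 543553 to 544205. Counting may have shared reads at TIM9 and TIM13. The feature YEL020C-B, whose systematic name stands next to that of TIM9, stood at 0.914 to 1.12 times the RPKM of TIM9 in the mRNA libraries, and YGR182C, whose name stands next to that of TIM13, at 0.848 to 1.77 times that of TIM13. In footprints YGR182C stood lower, at 0.206 to 0.407 times TIM13, while YEL020C-B stayed near the level of TIM9, at 0.920 to 1.11 times. The places of both features and the treatment of strand and overlap in counting were not given in the sources used here, so the values of TIM9 and TIM13 are uncertain to that extent.

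TIM10 had the most mRNA of the 9 genes per length and TIM9 the next most in every mRNA group. In wild type of the OXPHOS set the mean level was 599 ± 18.2 RPKM for TIM10, 345 ± 25.6 RPKM for TIM9, 152 ± 26.7 RPKM for MIA40, 141 ± 8.68 RPKM for TIM13 and 127 ± 4.95 RPKM for TIM8 (SD, n = 6). It was 87.8 ± 4.62 RPKM for TIM54, 71.3 ± 5.00 RPKM for TIM22, 70.9 ± 6.53 RPKM for ERV1 and 44.5 ± 4.76 RPKM for TIM12 (SD, n = 6). The ranges of MIA40 and TIM13, of TIM13 and TIM8, and of TIM22 and ERV1 overlapped, and the other neighbours in this order did not overlap. Across the 25 mRNA groups MIA40 ranked between 3 and 4, TIM8 between 3 and 5, TIM13 between 4 and 5, TIM54 between 6 and 7, ERV1 between 6 and 8, TIM22 between 7 and 9 and TIM12 between 8 and 9. So the docking subunit TIM12 was the scarcest message or the next to scarcest in each group, while its partners TIM9 and TIM10 were the most abundant.

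All 9 genes had more mRNA in rho0 cells than in wild type of the OXPHOS set, and MIA40 had the largest change. In these bulk cultures fewer cells of a kind and less RNA per cell cannot be told apart. MIA40 had 307, 312 and 313 RPKM in rho0 cells, against 186, 175, 165, 126, 129 and 130 RPKM in wild type. Every rho0 library lay above every wild-type library. The change was 0.98 ± 0.09 on the log2 scale (SE, adjusted p = 1.9e-07, limma on log2(RPKM + 1) after rescaling). A gene is called higher or lower below at an adjusted p under 0.05, and 25.1% of all genes tested were called higher and 23.6% lower in this comparison. Wild-type libraries 4 to 6 had less MIA40 mRNA than libraries 1 to 3, and the MIA40 change was 1.17 against libraries 4 to 6 alone and 0.76 against libraries 1 to 3 alone.

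The small TIM genes rose in rho0 cells by 0.24 to 0.71 on the log2 scale. TIM9 had 585, 595 and 594 RPKM in rho0 cells, against 391, 319, 344, 333, 329 and 353 RPKM in wild type, a change of 0.71 ± 0.06 (SE, adjusted p = 8.6e-08). TIM10 had 987, 994 and 967 RPKM in rho0 cells, against 621, 606, 567, 605, 594 and 601 RPKM in wild type, a change of 0.64 ± 0.04 (SE, adjusted p = 4.1e-10). Both partners of this chaperone rose without overlap between the groups. TIM12 had 66.5, 67.2 and 71.5 RPKM in rho0 cells, against 46.3, 40.1, 41.7, 50.3, 39.2 and 49.2 RPKM in wild type, a change of 0.55 ± 0.11 (SE, adjusted p = 3.9e-04). TIM8 had 174, 206 and 183 RPKM in rho0 cells, against 119 to 133 RPKM in wild type (median 127), a change of 0.49 ± 0.07 (SE, adjusted p = 9.4e-06). Its partner TIM13 changed by less, 0.24 ± 0.05 (SE, adjusted p = 0.0014), and the difference between the partners was not tested.

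TIM22, TIM54 and ERV1 rose in rho0 cells by 0.22 to 0.37 on the log2 scale. TIM22 had 102, 97.2 and 91.9 RPKM in rho0 cells, against 64.2 to 76.2 RPKM in wild type, a change of 0.37 ± 0.07 (SE, adjusted p = 3.1e-04). TIM54 changed by 0.22 ± 0.05 (SE, adjusted p = 0.0025). ERV1 had 85.9, 83.7 and 96.7 RPKM in rho0 cells, against 61.4 to 79.7 RPKM in wild type, a change of 0.25 ± 0.07 (SE, adjusted p = 0.0040) that fell to 0.16 without rho0 replicate 3 and then missed the threshold (adjusted p = 0.082). All of these groups were free of overlap with wild type.

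In atp7 cells 4 of the 9 genes rose, MIA40, TIM10, TIM9 and TIM8, and none fell. Of all genes tested, 20.8% were called higher and 24.4% lower. MIA40 had 267, 253 and 252 RPKM in atp7 cells, all above the wild-type values, a change of 0.68 ± 0.09 on the log2 scale (SE, adjusted p = 2.7e-05). It was 0.87 against wild-type libraries 4 to 6 alone and 0.49 against libraries 1 to 3 alone. TIM10 had 883, 874 and 857 RPKM, a change of 0.44 ± 0.04 (SE, adjusted p = 1.7e-07), and TIM9 had 497, 477 and 446 RPKM, a change of 0.36 ± 0.06 (SE, adjusted p = 2.8e-04). TIM8 changed by 0.22 ± 0.07 (SE, adjusted p = 0.013), and missed the threshold without atp7 replicate 1 (0.19, adjusted p = 0.072), without atp7 replicate 2 (0.18, adjusted p = 0.075) and against wild-type libraries 4 to 6 alone (0.16). The other 5 genes differed by -0.03 to 0.10 and their atp7 values overlapped those of wild type. Without rescaling TIM13 (0.19) and ERV1 (0.20) were called higher, and against wild-type libraries 4 to 6 alone TIM54 was called lower (-0.13). Stress genes summed to 1149 to 1436 RPKM in atp7 cells and 2584 to 2843 RPKM in rho0 cells, against 330 to 735 RPKM in wild type, and mating type a genes to 2449 to 2613 RPKM in atp7 cells and 1708 to 1720 RPKM in rho0 cells, against 1249 to 2096 RPKM in wild type. Ribosome biogenesis genes summed to 3268 to 3497 RPKM in atp7 cells and 3856 to 4377 RPKM in rho0 cells, against 3742 to 5502 RPKM in wild type, and all 10 of them fell in atp7 cells. The part of these lists in the results was not tested.

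Loss of COR1 or COX9 left no detectable change in any of the 9 genes. Changes on the log2 scale ran from -0.09 to 0.07 in cor1 cells and from -0.12 to 0.07 in cox9 cells, each against wild type. By limma 0 of the 9 passed the adjusted threshold and 0 of the 9 had an unadjusted p under 0.05 in either strain, beside 6.22% of all genes called in cor1 cells and 6.62% in cox9 cells. Every group overlapped wild type. Against wild-type libraries 4 to 6 alone, MIA40 was called higher in both strains (0.26 each), TIM54 lower in both (-0.19 in cor1 and -0.17 in cox9) and TIM22 lower in cor1 (-0.16). Against libraries 1 to 3 alone the MIA40 difference was -0.13 in cor1 cells and -0.12 in cox9 cells and was not called.

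**Figure D1:**
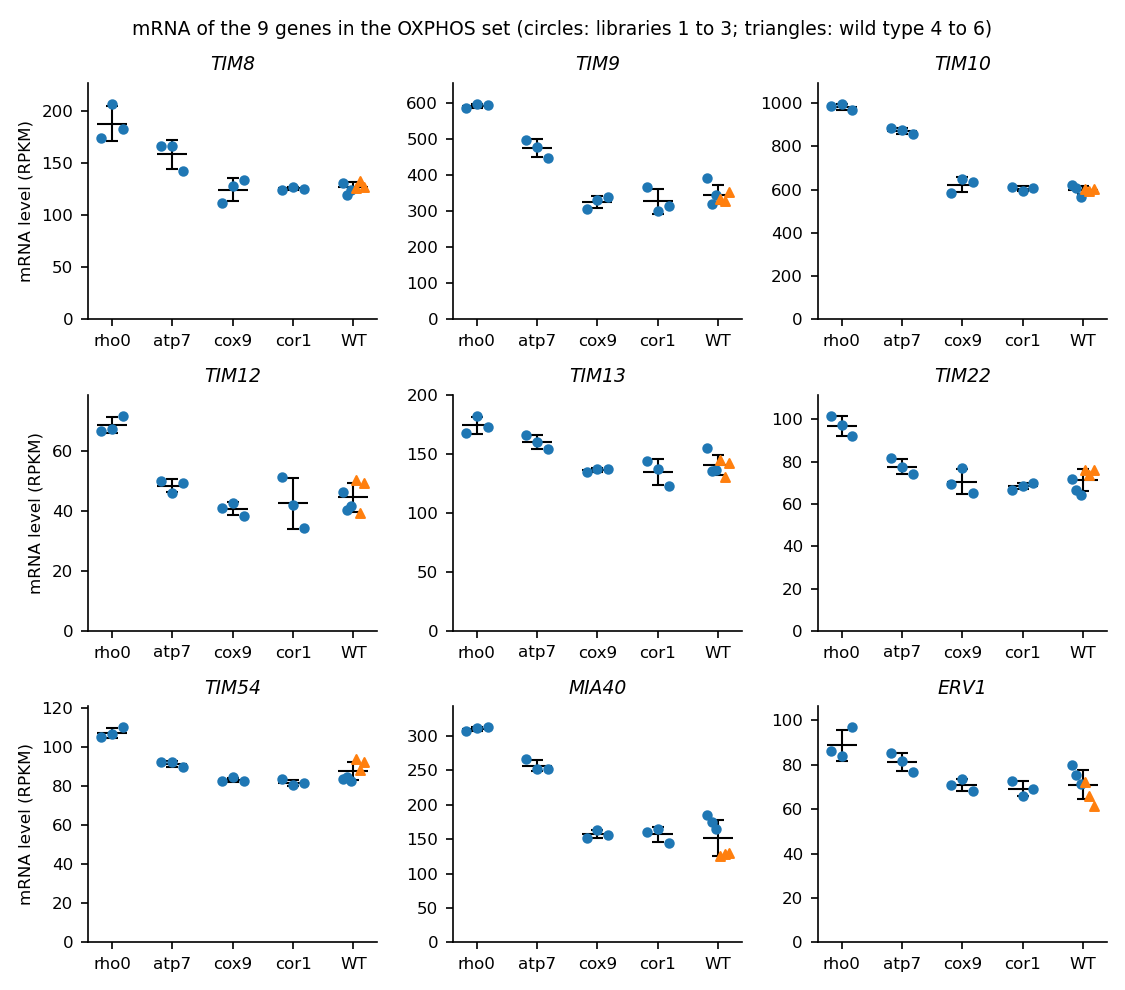
mRNA levels (RPKM, linear axis from 0) of each gene in rho0, atp7, cox9, cor1 and wild-type cells of the OXPHOS set, with 1 point per library, a bar for the mean and whiskers for the SD. MIA40, TIM9 and TIM10 stand above wild type in rho0 and atp7 cells, cor1 and cox9 overlap wild type in every panel, and MIA40 in wild type splits between libraries 1 to 3 (165 to 186 RPKM) and 4 to 6 (126 to 130 RPKM).

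Set directly against atp7, rho0 cells had more mRNA of 7 of the 9 genes, where 17.9% of all genes tested were called higher. TIM12 had 66.5, 67.2 and 71.5 RPKM in rho0 cells, against 49.8, 45.8 and 49.2 RPKM in atp7 cells, a change of 0.52 ± 0.12 on the log2 scale (SE, adjusted p = 0.0050). TIM9 changed by 0.35, TIM22 by 0.34, MIA40 by 0.30, TIM8 by 0.27, TIM54 by 0.25 and TIM10 by 0.20, and the rho0 libraries lay above the atp7 libraries for each. The MIA40 call (adjusted p = 0.043) ended when any single one of the 6 libraries was left out (0.25 to 0.32), with median-ratio size factors (0.29), without rescaling (0.27) and with no filter (0.30). The TIM8 call ended without atp7 replicate 3 (0.20), rho0 replicate 2 (0.17) or rho0 replicate 3 (0.25), and the TIM54 call without rho0 replicate 3 (0.19). TIM13 changed by 0.15 (adjusted p = 0.076) and ERV1 by 0.16 (adjusted p = 0.12), neither of which passed. In the sample order wild-type libraries 1 to 3 come before cor1, cox9 and atp7, and 4 to 6 directly before rho0. Against libraries 4 to 6 alone, rho0 changes were 0.46 (TIM12), 0.70 (TIM9), 0.26 (TIM22) and 1.17 (MIA40). Those of TIM8, TIM54 and TIM10 were 0.44, 0.13 and 0.61. In atp7 against libraries 1 to 3 alone, the changes in the same order were 0.12, 0.38, 0.15, 0.49, 0.28, 0.07 and 0.49. The part of this split in the direct comparison was not tested.

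The messages of proteins that use this machinery were set beside the shares of all genes called, which were 25.1% higher and 23.6% lower in rho0 cells. Of 14 substrates of the MIA pathway, 11 rose and 2 fell in rho0 cells, with a median change of 0.85 on the log2 scale, beside 0.49 for the 9 genes and -0.00 for all genes tested. MDM35, whose product shuttles lipid transfer proteins, changed by 1.38, COX17, a copper chaperone for cytochrome c oxidase, by 1.43 and the small cysteine-rich gene MIX17 by 0.94. Of 26 substrates of the TIM22 complex, 9 rose and 7 fell, with a median of 0.10, counts near those shares that are given as a description. TIM23, the channel for presequence proteins, rose by 0.61, whereas MIR1, the phosphate carrier, fell by 0.60 and PET9, which exchanges ADP for ATP, by 0.48. Of 7 other genes tied to either pathway, 6 rose and none fell, among them CYC1, a cytochrome c gene, by 0.73 and HOT13, which assists Mia40 oxidation, by 0.71. In atp7 cells 10 of the 14 MIA substrates rose and 3 fell (median 0.37), 8 of the 26 TIM22 substrates rose and 6 fell (median 0.03) and 5 of the 7 other genes rose. Of all genes tested there, 20.8% were called higher and 24.4% lower, so that the TIM22 substrates again lay near the background.

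In the other 3 mRNA sets with rho0 and wild-type cells, TIM8, TIM9, TIM10, TIM13 and MIA40 were called higher each time, making 4 sets of 4. TIM12 was higher in 3 of the 4 sets, TIM22 and TIM54 in 2 and ERV1 in 1. These sets do not share libraries. Of all genes tested, 21.2% were called higher in the PUF3 set, 28.5% in the Puf3-15A set and 34.8% in the INH1 set. The Puf3-15A wild type expressed mating type a genes as its rho0 cells did, but other lists moved. Stress genes summed to 2375 to 2691 RPKM in rho0 cells, against 567 to 779 RPKM in wild type, and ribosome biogenesis genes to 2978 to 3097 RPKM, against 3744 to 4203 RPKM, and their part was not tested. There TIM9 had 657, 647 and 593 RPKM in rho0 cells, against 368, 407 and 403 RPKM in wild type, a change of 0.67 ± 0.06 on the log2 scale (SE, adjusted p = 1.0e-06). MIA40 had 278, 278 and 289 RPKM in rho0 cells, against 190, 169 and 183 RPKM in wild type, a change of 0.62 ± 0.04 (SE, adjusted p = 2.4e-07). The rho0 libraries lay above wild type for both genes. TIM10 changed by 0.59, TIM12 by 0.35, TIM8 by 0.31 and TIM13 by 0.20, while TIM22 (0.03), TIM54 (0.05) and ERV1 (0.05) were not called, and TIM22 passed only without wild-type replicate 2 (0.11).

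In the INH1 set the wild type had low mating type a genes (2070 to 2160 RPKM in sum in rho0, against 20.3 to 27.2 RPKM). The sum of stress genes was 3083 to 3336 RPKM in rho0 cells, against 628 to 709 RPKM in wild type, and that of ribosome biogenesis genes 2782 to 2809 RPKM, against 4531 to 4579 RPKM. MIA40 had 370, 358 and 376 RPKM in rho0 cells, against 188, 188 and 191 RPKM in wild type, a change of 0.85 ± 0.02 on the log2 scale (SE, adjusted p = 5.3e-12). TIM10 changed by 0.80, TIM9 by 0.60, TIM8 by 0.36, TIM13 by 0.17 and TIM22 by 0.17. TIM12 had 66.5, 57.2 and 59.0 RPKM in rho0 cells, against 56.5, 54.3 and 59.5 RPKM in wild type, so that the groups overlapped and the change was -0.01 (adjusted p = 0.88). TIM54 (0.03) and ERV1 (-0.02) were also not called, and TIM54 passed only without rescaling (0.14).

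**Figure D2:**
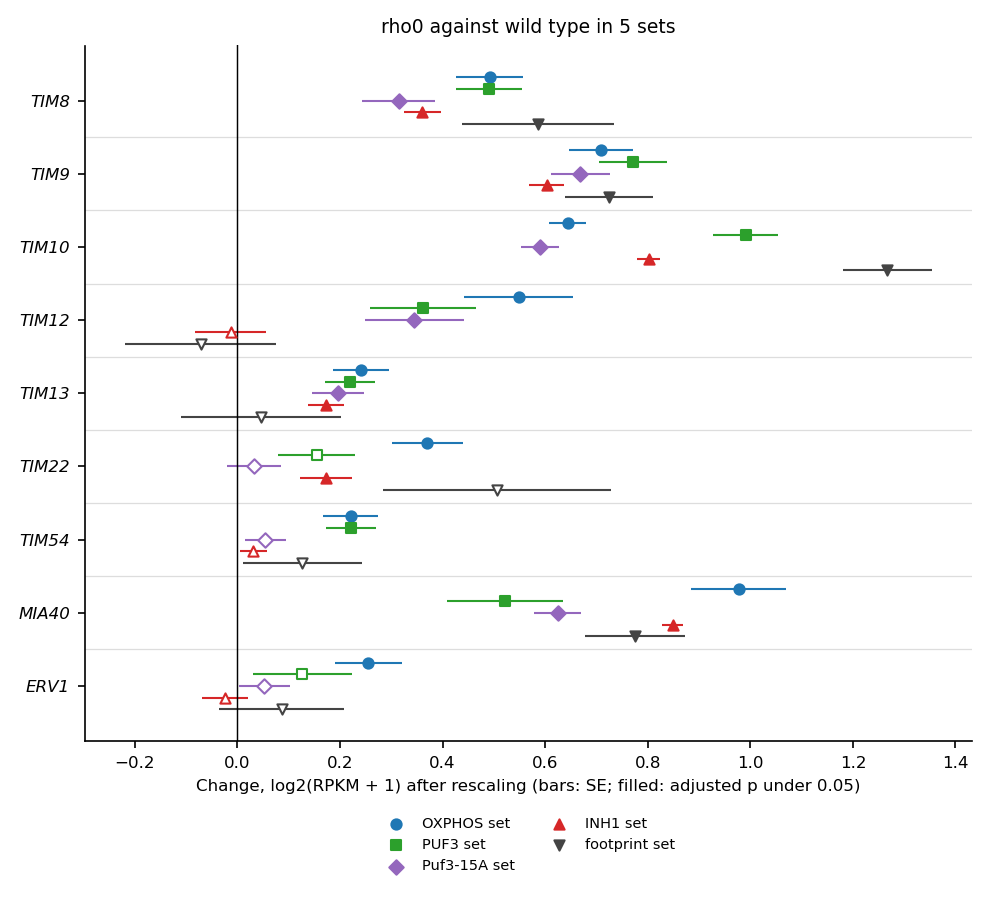
Change of each gene in rho0 cells against the wild type of the same set, on the log2(RPKM + 1) scale after rescaling, for 4 mRNA sets and the footprint set; symbols show the set, bars the SE, and filled symbols an adjusted p under 0.05. TIM9 and MIA40 sit between 0.52 and 0.98 in every set, whereas TIM12 reaches 0.55 in the OXPHOS set and lies at or below 0 in the INH1 and footprint sets.

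In the PUF3 set both respiratory defects raised most of the 9 genes, with wild type at 566 to 830 RPKM of summed mating type a genes, against 2466 to 2602 RPKM in atp7 and 2529 to 2787 RPKM in rho0. TIM10 had 1161, 1095 and 1102 RPKM in rho0 cells and 964, 971 and 981 RPKM in atp7 cells, against 598, 540 and 566 RPKM in wild type. The changes were 0.99 ± 0.06 in rho0 (SE, adjusted p = 1.2e-08) and 0.69 ± 0.06 in atp7 (SE, adjusted p = 6.8e-07) on the log2 scale, without overlap. In atp7, 6 of the 9 genes rose (29.4% of all genes tested were called higher): TIM10, MIA40 (0.61), TIM8 (0.37), TIM9 (0.34), TIM12 (0.30) and TIM13 (0.17). In rho0, 7 rose, the same 6 and TIM54 (0.22), with TIM9 at 0.77, MIA40 at 0.52, TIM8 at 0.49, TIM12 at 0.36 and TIM13 at 0.22. The MIA40 values spread widely here, with 335, 224 and 219 RPKM in rho0 cells, against 145, 205 and 191 RPKM in wild type, and rho0 replicate 1 alone stood far above the others. The TIM12 call ended without wild-type replicate 2 or 3 in both strains (0.23 and 0.25 in atp7, 0.29 and 0.31 in rho0), without atp7 replicate 2 (0.27) and without rho0 replicate 2 (0.32). When the fit held only the groups compared, TIM12 was no longer called in atp7 (0.29, adjusted p = 0.069), and 3 genes were called in rho0, TIM8, TIM9 and TIM10. Without wild-type replicate 1, ERV1 was called in atp7 (0.27) and TIM22 in rho0 (0.21), and ERV1 was called in atp7 also without rescaling (0.25). Stress genes summed to 2666 to 3258 RPKM in atp7 and 1226 to 3224 RPKM in rho0, against 328 to 803 RPKM in wild type. Ribosome biogenesis genes summed to 2563 to 2684 RPKM in atp7 and 3825 to 4136 RPKM in rho0, against 4089 to 5510 RPKM in wild type, and the part of both lists was not tested. Both comparisons share the wild-type libraries.

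With PUF3 deletion TIM10 and TIM8 were higher than in wild-type cells, whereas in rho0 cells TIM10 was lower with the deletion. Against wild type 3 of the 9 rose on loss of PUF3, where 8.85% of all genes tested were called higher, and none fell. TIM10 had 861, 858 and 788 RPKM in puf3 cells, against 598, 540 and 566 RPKM in wild type, a change of 0.61 ± 0.06 on the log2 scale (SE, adjusted p = 1.4e-05). TIM8 had 188, 180 and 161 RPKM in puf3 cells, against 133, 143 and 134 RPKM in wild type, a change of 0.41 ± 0.06 (SE, adjusted p = 6.0e-04). Neither gene overlapped between the groups. TIM54 changed by 0.15 (adjusted p = 0.049), and this call ended when any single library was left out except wild-type replicate 1 (0.11 to 0.16), with only the compared groups in the fit (0.14), with the replicate number as a block (0.15) and without rescaling (0.10). MIA40 had 155, 153 and 160 RPKM in puf3 cells, inside the wild-type range, with a change of -0.14 (adjusted p = 0.42). TIM9 (0.16), TIM12 (0.31) and TIM22 (0.21) were called only without wild-type replicate 1 (0.25, 0.44 and 0.27), TIM22 also without puf3 replicate 1 (0.28). The summed mating type a genes were 2187 to 2538 RPKM in puf3 cells, against 566 to 830 RPKM in wild type. The stress genes summed to 245 to 337 RPKM, against 328 to 803 RPKM, and 4 of the 10 fell, while 4 of the 10 ribosome biogenesis genes rose (5413 to 5868 RPKM in sum, against 4089 to 5510 RPKM). The part of the mating type a, stress and ribosome biogenesis genes in these results was not tested.

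In rho0 cells the same deletion lowered 5 of the 9 genes and raised none, where 15.0% of all genes tested were called higher and 15.6% lower, and mating type a genes were high on both sides (1913 to 2179 RPKM in puf3 rho0, against 2529 to 2787 RPKM in rho0). The stress genes stood at 4695 to 5578 RPKM in sum in puf3 rho0, against 1226 to 3224 RPKM in rho0, and the ribosome biogenesis genes at 2514 to 2943 RPKM, against 3825 to 4136 RPKM, and their part was not tested. TIM9 had 496, 439 and 442 RPKM in puf3 rho0 cells, against 798, 675 and 669 RPKM in rho0 cells, and fell by 0.68 on the log2 scale (SE 0.07, adjusted p = 3.0e-06). TIM54 had 78.3, 70.7 and 76.7 RPKM in puf3 rho0 cells, against 105, 99.8 and 99.9 RPKM in rho0 cells, and fell by 0.47 (SE 0.05, adjusted p = 4.0e-06). Neither overlapped. TIM10 fell by 0.24 (adjusted p = 0.010), TIM12 by 0.29 (adjusted p = 0.044) and MIA40 by 0.37 (adjusted p = 0.023). MIA40 had 230, 191 and 191 RPKM in puf3 rho0 cells, against 335, 224 and 219 RPKM in rho0 cells, and its change was -0.20 without rho0 replicate 1 (adjusted p = 0.079), -0.34 without puf3 rho0 replicate 2 and -0.33 without puf3 rho0 replicate 3, none of them called, nor was -0.32 without rescaling. The TIM12 call ended without rho0 replicate 1 (-0.29) or 2 (-0.25), without puf3 rho0 replicate 1 (-0.21) or 3 (-0.32), with no filter and with median-ratio size factors (-0.28). With only the compared groups in the fit, TIM9, TIM10 and TIM54 were called. Of the 14 MIA substrates 2 rose and 4 fell here, and of the 26 TIM22 substrates 4 rose and 11 fell, among them the nucleotide carrier RIM2 by 0.66. Of the 7 other pathway genes 1 rose and 1 fell. The median change was -0.24 for the 9 genes, -0.01 for MIA substrates, -0.25 for TIM22 substrates and 0.00 for all genes.

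Loss of PUF3 from atp7 cells lowered TIM9 alone among the 9, where 2.06% of all genes tested were called lower. TIM9 had 416, 417 and 409 RPKM in atp7 puf3 cells, against 556, 563 and 575 RPKM in atp7 cells, and fell by 0.42 on the log2 scale (SE 0.07, adjusted p = 0.0012) without overlap. MIA40 had 217, 223 and 215 RPKM in atp7 puf3 cells, against 283, 293 and 291 RPKM in atp7 cells, also without overlap, but its change of -0.37 did not pass (adjusted p = 0.17). With only these groups in the fit 4 genes were called, TIM9, MIA40 (-0.38), TIM54 (-0.19) and TIM22 (-0.21), and TIM54 passed also without rescaling (-0.22) and with no filter (-0.19). The effects of the deletion were then compared between backgrounds. The effect in rho0 minus that in wild type was negative and called for 6 of the 9 genes (19.8% of all genes tested were called lower), with TIM10 at -0.85 ± 0.09 (SE, adjusted p = 7.3e-06) and TIM9 at -0.84 ± 0.10 (SE, adjusted p = 1.3e-05). The effect in atp7 minus that in wild type was negative and called for 5 (4.98% of all genes tested were called lower), with TIM10 at -0.59 ± 0.09 (SE, adjusted p = 5.8e-04) and TIM9 at -0.58 ± 0.10 (SE, adjusted p = 0.0011). The TIM22 difference in rho0 missed the threshold without rescaling (-0.27). The TIM8 difference in atp7 missed it without wild-type replicate 3, puf3 replicate 2, atp7 replicate 2 or 3, or atp7 puf3 replicate 2 or 3 (-0.31 to -0.36). That of TIM22 missed it without wild-type replicate 2 or 3, puf3 replicate 2 or 3, atp7 replicate 1 or atp7 puf3 replicate 3 (-0.36 to -0.42), and TIM12 was called only without wild-type replicate 1 (-0.52). Both differences rest on the wild type with 566 to 830 RPKM of mating type a genes and share its libraries. In the difference in rho0, 8 of the 10 stress genes were also called, all positive, and all 10 ribosome biogenesis genes, all negative. TIM13 (0.01 in rho0 and -0.00 in atp7) and ERV1 (0.04 and 0.14) showed no such difference that passed the test.

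The puf3-15A allele lowered 3 of the 9 genes against wild type and 5 against rho0 cells, and raised none. Against wild type, where 6.33% of all genes tested were called higher and 7.47% lower, TIM9, MIA40 and TIM10 fell. MIA40 had 146, 140 and 130 RPKM in puf3-15A cells, against 190, 169 and 183 RPKM in wild type, and fell by 0.34 on the log2 scale (SE 0.04, adjusted p = 3.7e-04). TIM9 had 284, 324 and 292 RPKM in puf3-15A cells, against 368, 407 and 403 RPKM in wild type, and fell by 0.35 (SE 0.06, adjusted p = 0.0018). TIM10 fell by 0.27 (SE 0.04, adjusted p = 4.1e-04). No puf3-15A library reached the wild-type range for these 3 genes. Of the stress genes 7 of 10 fell (442 to 484 RPKM in sum in puf3-15A, against 567 to 779 RPKM in wild type), and of the ribosome biogenesis genes 8 of 10 rose (4390 to 4417 RPKM, against 3744 to 4203 RPKM). Among the MIA substrates 10 of 14 fell and none rose (median -0.28, beside -0.12 for the 9 genes and 0.01 for all genes), with COX17 down by 0.60 and MDM35 by 0.56. Of the 26 TIM22 substrates 3 rose and 10 fell (median -0.10), and of the 7 other genes 2 fell, CYC1 by 0.50 and SDH3 by 0.30.

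In rho0 cells puf3-15A lowered TIM9, MIA40, TIM10, TIM8 and TIM54, where 9.26% of all genes tested were called higher and 8.74% lower. TIM9 had 375, 382 and 389 RPKM in puf3-15A rho0 cells, against 657, 647 and 593 RPKM in rho0 cells, and fell by 0.68 on the log2 scale (SE 0.06, adjusted p = 3.5e-06). MIA40 had 179, 188 and 191 RPKM in puf3-15A rho0 cells, against 278, 278 and 289 RPKM in rho0 cells, and fell by 0.56 (SE 0.05, adjusted p = 2.6e-06). TIM10 had 785, 745 and 796 RPKM in puf3-15A rho0 cells, against 1169, 1150 and 1123 RPKM in rho0 cells, and fell by 0.52 (SE 0.04, adjusted p = 9.1e-07). For TIM9, TIM10 and MIA40 the puf3-15A rho0 levels thus lay close to those of wild type in the same set (368 to 407, 745 to 767 and 169 to 190 RPKM), a pair that was not tested. TIM8 and TIM54 lay below wild type instead. TIM8 had 130 to 133 RPKM, against 140 to 156 RPKM in wild type, and TIM54 had 70.5 to 74.2 RPKM, against 81.8 to 85.7 RPKM. Against rho0 cells TIM8 fell by 0.47 and TIM54 by 0.24, TIM22 (-0.16) and TIM13 (-0.13) were called only with other settings (without rescaling -0.20 and -0.17, TIM22 also with only the compared groups), and ERV1 (0.08) only without puf3-15A rho0 replicate 1 (0.15). Of the MIA substrates 9 of 14 fell and none rose (median -0.54, beside -0.24 for the 9 genes), with COX17 down by 1.03. Of the TIM22 substrates 9 rose and 7 fell (median -0.01), and of the 7 other genes CYC1 fell. The effect in rho0 minus that in wild type was called negative for 5 of the 9 (9.33% of all genes tested were called lower), from -0.38 for TIM8 to -0.17 for TIM54. It was also called for 6 of the 10 stress genes, all positive, and 6 of the 10 ribosome biogenesis genes, all negative. The calls of TIM54 and MIA40 each ended in 10 of the 12 single-library omissions, and that of TIM8 in 5 of them (-0.33 to -0.38), whereas those of TIM9 and TIM10 held in all 12. TIM12 was called without wild-type replicate 2 or rho0 replicate 3 (-0.44 each), and ERV1 without puf3-15A rho0 replicate 1 (0.20).

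**Figure D3:**
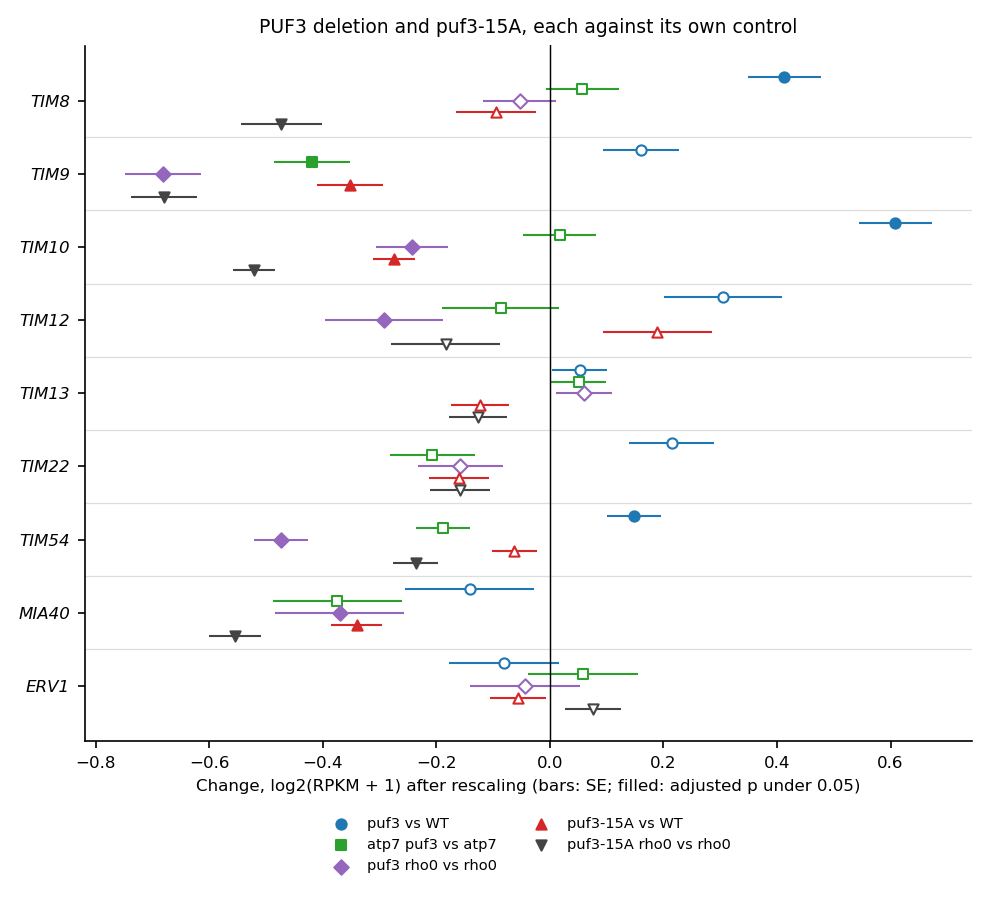
Change of each gene on loss of PUF3 (puf3 against wild type, atp7 puf3 against atp7, puf3 rho0 against rho0) and with puf3-15A (against wild type and against rho0), on the log2(RPKM + 1) scale after rescaling; bars are the SE and filled symbols mark an adjusted p under 0.05. TIM8 and TIM10 stand at 0.41 and 0.61 for puf3 against wild type, while TIM9 is at -0.68 in both rho0 comparisons.

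When SNF1 was present, EB raised MIA40 and TIM8, while TIM12, TIM22 and TIM54 fell. Of all genes tested, 35.0% were called higher and 37.0% lower there. The numbers of the 9 genes called each way do not exceed these shares, and are given as a description. MIA40 had 370, 355 and 310 RPKM with EB, against 184, 183 and 196 RPKM without it, a change of 0.94 ± 0.08 on the log2 scale (SE, adjusted p = 4.4e-07). TIM12 had 28.4, 29.4 and 31.1 RPKM with EB, against 45.9, 44.4 and 51.4 RPKM without it, and fell by 0.59 (SE 0.08, adjusted p = 1.8e-05). TIM22 had 43.5, 40.0 and 40.7 RPKM with EB, against 67.1, 62.1 and 65.9 RPKM without it, and fell by 0.57 (SE 0.07, adjusted p = 1.1e-05). None of these 3 overlapped between the groups. TIM54 fell by 0.20 (adjusted p = 0.0088). TIM8 changed by 0.20 (adjusted p = 0.040), and its call ended without wild-type replicate 1 (0.18) or 3 (0.20), without EB replicate 1 (0.20) or 3 (0.19) and without rescaling (0.13). TIM9, TIM10, TIM13 and ERV1 changed by -0.01 to 0.10 and were not called. In the same comparison all 10 of a list of stress genes rose (8080 to 9271 RPKM in sum with EB, against 706 to 861 RPKM without it) and all 10 of a list of ribosome biogenesis genes fell (990 to 1202 RPKM, against 3748 to 3885 RPKM), and their part in the result was not tested. Of the 14 MIA substrates 8 rose and 5 fell (median 0.30, beside 0.00 for the 9 genes and -0.00 for all genes), of the 26 TIM22 substrates 11 rose and 10 fell (median 0.11), with the oxaloacetate carrier OAC1 down by 1.97, and of the 7 others 4 rose and 1 fell.

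Without SNF1, EB raised 6 of the 9 genes and lowered none, where 25.7% of all genes tested were called higher and both groups had low mating type a genes. Stress genes summed to 2525 to 3466 RPKM in snf1 cells with EB, against 883 to 2166 RPKM in snf1 cells, and ribosome biogenesis genes to 2242 to 2349 RPKM, against 3471 to 3697 RPKM, and their part was not tested. MIA40 had 422, 424 and 483 RPKM in snf1 cells with EB, against 251, 250 and 205 RPKM in snf1 cells, a change of 0.85 ± 0.08 on the log2 scale (SE, adjusted p = 3.4e-06). TIM9 had 708, 690 and 808 RPKM with EB, against 441, 488 and 437 RPKM without it, a change of 0.63 ± 0.08 (SE, adjusted p = 3.1e-05). Both lay wholly above the untreated range. TIM10 changed by 0.55, TIM8 by 0.54, TIM54 by 0.26 and TIM12 by 0.24 (adjusted p = 0.019). The TIM12 call ended without snf1 replicate 3 (0.17), snf1 EB replicate 1 (0.20) or snf1 EB replicate 3 (0.22). TIM22 (0.01), TIM13 (0.02) and ERV1 (0.02) were not called. The EB effect without SNF1 minus that with SNF1 was positive and called for 6 of the 9 (23.0% of all genes tested were called higher), from 0.34 for TIM8 to 0.82 ± 0.11 for TIM12 (SE, adjusted p = 6.2e-05), and was -0.09 and not called for MIA40. The same difference was called negative for all 10 stress genes and positive for all 10 ribosome biogenesis genes. The TIM8 call ended without wild-type replicate 2 (0.31) or 3 (0.33), snf1 replicate 1 (0.26) or snf1 EB replicate 3 (0.26).

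Between EB-treated cells, those without SNF1 had more mRNA of TIM12, TIM9, TIM22, TIM54 and TIM8, where 29.4% of all genes tested were called higher and 31.5% lower. TIM12 had 75.6, 62.6 and 70.3 RPKM in snf1 EB cells, against 28.4, 29.4 and 31.1 RPKM in EB cells, a change of 0.94 ± 0.08 on the log2 scale (SE, adjusted p = 5.0e-07) without overlap. TIM9 changed by 0.48, TIM22 by 0.46, TIM54 by 0.42 and TIM8 by 0.25, the last of these not called without snf1 EB replicate 3 (0.17). Rescaling matters in this comparison, because it moved all genes by 0.27, and before it all 9 genes were called higher. TIM10 then changed by 0.26 and TIM13 by 0.21, against -0.01 and -0.05 after rescaling. Mating type a genes summed to 36.6 to 42.3 RPKM in snf1 EB cells, against 1173 to 1348 RPKM in EB cells. The stress genes stood at 2525 to 3466 RPKM in sum, against 8080 to 9271 RPKM, and the ribosome biogenesis genes at 2242 to 2349 RPKM, against 990 to 1202 RPKM. Of the MIA substrates 9 of 14 rose and 1 fell (median 0.30, beside 0.25 for the 9 genes and -0.01 for all genes), of the TIM22 substrates 7 rose and 13 fell (median -0.27), and of the 7 others 2 rose and 4 fell.

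Without EB, snf1 cells differed from wild type in TIM10 alone, where 16.1% of all genes tested were called lower. TIM10 had 598, 598 and 589 RPKM in snf1 cells, against 726, 720 and 784 RPKM in wild type, and fell by 0.46 on the log2 scale (SE 0.07, adjusted p = 5.7e-04) without overlap. Here too the mating type a genes differed, with 22.9 to 42.1 RPKM in sum in snf1 cells, against 2257 to 2455 RPKM in wild type. Of the stress genes 5 of 10 rose (883 to 2166 RPKM in sum in snf1, against 706 to 861 RPKM in wild type), and of the ribosome biogenesis genes 3 of 10 fell (3471 to 3697 RPKM, against 3748 to 3885 RPKM). MIA40 had 251, 250 and 205 RPKM in snf1 cells, all above the 183 to 196 RPKM of wild type, and its change of 0.18 was not called (adjusted p = 0.12). It was called without rescaling (0.32) and with only the compared groups in the fit (0.20), and ERV1 (0.09) without rescaling (0.23).

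Loss of MIG1 from snf1 cells with EB raised 5 of the 9 genes by small amounts, where 15.8% of all genes tested were called higher. TIM13 had 147, 151 and 161 RPKM in snf1 mig1 EB cells, against 116, 123 and 142 RPKM in snf1 EB cells, a change of 0.34 ± 0.06 on the log2 scale (SE, adjusted p = 0.0079). TIM8 had 176, 203 and 200 RPKM in snf1 mig1 EB cells, against 146, 159 and 176 RPKM in snf1 EB cells, a change of 0.34 ± 0.07 (SE, adjusted p = 0.013). The partners TIM8 and TIM13 thus lay above the snf1 EB ranges, by a narrow margin. TIM9 (0.29), TIM10 (0.28) and MIA40 (0.19, adjusted p = 0.041) were called as well, and the ranges of TIM9 and MIA40 overlapped. The MIA40 call ended when any single library but snf1 EB replicate 3 was left out (0.18 to 0.22), the TIM9 call without snf1 EB replicate 1 or 2 or snf1 mig1 EB replicate 1 or 2 (0.23 to 0.32) and the TIM10 call without snf1 EB replicate 1 (0.26) or 2 (0.27). Without rescaling the changes of these 5 genes were 0.12 to 0.27 and all 5 calls were lost. Stress genes summed to 2362 to 2612 RPKM in snf1 mig1 EB cells, against 1403 to 1464 RPKM in snf1 EB cells, and ribosome biogenesis genes to 1301 to 1450 RPKM, against 1533 to 1753 RPKM, and their part was not tested.

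The CUP1p-INH1 construct alone changed 1 of the 9 genes in rho0 cells at the threshold, and CuSO4 raised 8. Without copper MIA40 had 391, 389 and 387 RPKM with the construct, against 370, 358 and 376 RPKM in rho0 cells, a change of 0.07 ± 0.02 on the log2 scale (SE, adjusted p = 0.031). Of all genes tested 9.74% were called higher there. Of the stress genes 9 of 10 rose (4156 to 4280 RPKM in sum with the construct, against 3083 to 3336 RPKM in rho0), and of the ribosome biogenesis genes 7 of 10 fell (2617 to 2664 RPKM, against 2782 to 2809 RPKM). The MIA40 call ended without rho0 replicate 1 or 2 or any single construct library (0.05 to 0.08), with only the compared groups in the fit and with median-ratio size factors (0.07). TIM9 (0.10) was called without rho0 replicate 3 (0.13) or without rescaling (0.11), and ERV1 (0.10) without construct replicate 3 (0.16).

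With CuSO4, 34.8% of all genes tested were called higher and 36.8% lower. MIA40 had 765, 783 and 785 RPKM with CuSO4, against 391, 389 and 387 RPKM without it, a change of 0.93 ± 0.02 on the log2 scale (SE, adjusted p = 1.3e-12). ERV1, the partner of MIA40, had 160, 172 and 168 RPKM with CuSO4, against 101, 105 and 91.0 RPKM without it, a change of 0.68 ± 0.05 (SE, adjusted p = 3.0e-08). Both members of the relay lay far above the range without copper. TIM8 had 289, 305 and 291 RPKM with CuSO4, against 195, 185 and 201 RPKM without it, a change of 0.53 ± 0.04 (SE, adjusted p = 3.9e-08). TIM13 had 264, 261 and 255 RPKM with CuSO4, against 171, 183 and 183 RPKM without it, a change of 0.46 ± 0.04 (SE, adjusted p = 1.2e-07). TIM9 changed by 0.36, TIM12 by 0.28, TIM22 by 0.27 and TIM54 by 0.24, and these groups did not overlap either. TIM10 was the exception, with 1086, 1065 and 1127 RPKM with CuSO4, against 1056, 1048 and 1043 RPKM without it. These ranges did not overlap in RPKM, yet after rescaling the difference was -0.01 (adjusted p = 0.63), and it was 0.06 and called without rescaling.

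The stress genes also rose in all 10 cases with CuSO4 (15433 to 16023 RPKM in sum, against 4156 to 4280 RPKM) and the ribosome biogenesis genes fell in all 10 (1454 to 1498 RPKM, against 2617 to 2664 RPKM), and their part in the result was not tested. Of the 14 MIA substrates 12 rose and 1 fell (median 0.73, beside 0.36 for the 9 genes and -0.00 for all genes), with COX17 up by 1.31 and MDM35 by 1.08. Of the 26 TIM22 substrates 13 rose and 9 fell (median 0.12), with the oxodicarboxylate carrier ODC2 down by 0.89, and of the 7 other genes 4 rose and CYC1 fell by 0.93. Over the 21 mRNA comparisons other than interactions, ERV1 was called in 2, the OXPHOS rho0 cells and the copper-treated cells, and higher in both. MIA40 was called higher in 12 and lower in 3, TIM8 in 13 and 1, TIM9 in 11 and 4, TIM10 in 10 and 4, TIM12 in 8 and 2, TIM54 in 7 and 3, TIM22 in 5 and 1 and TIM13 in 7 and 0. Many of these comparisons share libraries. They called unlike shares of all genes tested, such as 2.06% lower in atp7 puf3 against atp7 and 37.0% lower with EB against wild type. Several of the counted calls ended when a single library was left out. The tallies thus have no single background and are a description.

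**Figure D4:**
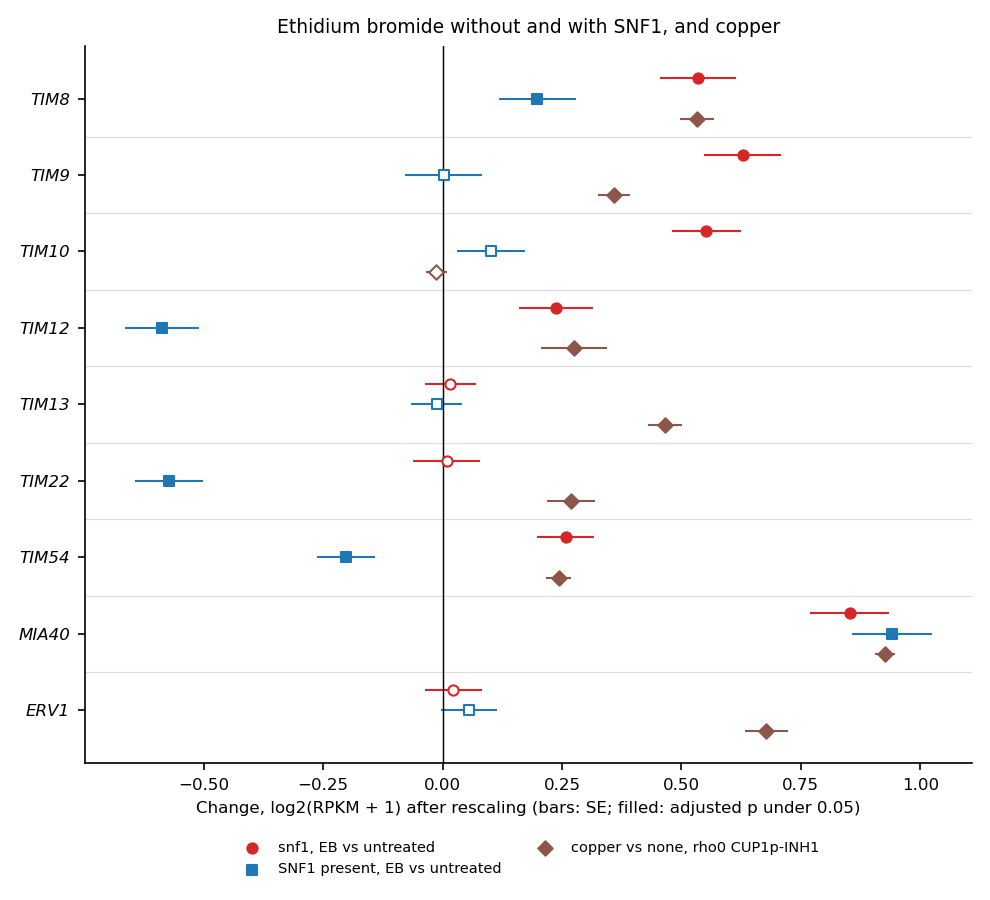
Change of each gene with EB in snf1 cells (against snf1), with EB in SNF1 cells (against untreated wild type) and with CuSO4 in rho0 CUP1p-INH1 cells (against the same cells without it), on the log2(RPKM + 1) scale after rescaling; bars are the SE and filled symbols mark an adjusted p under 0.05. MIA40 lies at 0.85, 0.94 and 0.93, TIM12 and TIM22 are below 0 with EB only where SNF1 is present, and ERV1 stands apart from 0 with CuSO4 alone.

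Ribosome footprints gave the 9 genes another order. TIM9 ranked first in wild type with 533 and 441 RPKM, and TIM10 followed with 319 and 333 RPKM, the reverse of their mRNA order. TIM54 was last with 32.5 and 34.1 RPKM. The mean footprint level divided by the mean mRNA level of the PUF3 set was 0.37 to 0.39 for TIM54 in all 4 genotypes, against 1.26 to 1.77 for TIM8 and 1.38 to 2.32 for TIM12. These ratios set RPKM of separately scaled libraries side by side, so that they order genes within a genotype and give no absolute rate. Footprint reads were few for the rarer messages, 26 to 83 for TIM12, 54 to 96 for TIM22 and 46 to 123 for ERV1 per library, and the wild-type libraries had 16.8 to 32.4 RPKM of summed mating type a genes, against 2170 to 2582 RPKM in the other groups.

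In rho0 cells TIM10, MIA40, TIM9 and TIM8 had more footprints than in wild type, where 12.6% of all genes tested were called higher. Footprints of stress genes summed to 2130 to 3622 RPKM in rho0 cells, against 527 to 741 RPKM in wild type, and those of ribosome biogenesis genes to 2103 to 2415 RPKM, against 2793 to 3218 RPKM. TIM10 had 845 and 867 RPKM in rho0 cells, against 319 and 333 RPKM in wild type, a change of 1.27 ± 0.09 on the log2 scale (SE, adjusted p = 2.4e-04). MIA40 had 200 and 246 RPKM in rho0 cells, against 122 and 116 RPKM in wild type, a change of 0.77 ± 0.10 (SE, adjusted p = 0.0021). TIM9 had 850 and 897 RPKM in rho0 cells, against 533 and 441 RPKM in wild type, a change of 0.73 ± 0.09 (SE, adjusted p = 0.0016). None of these 3 overlapped. TIM8 changed by 0.59 (adjusted p = 0.027), and its call ended without wild-type replicate 2 (0.39), rho0 replicate 1 (0.53) or rho0 replicate 2 (0.64), with no filter and with only the compared groups. TIM22 had 75.3 and 51.6 RPKM in rho0 cells, against 35.9 and 44.6 RPKM in wild type, and its change of 0.51 ± 0.22 did not pass (SE, adjusted p = 0.14). With 1 footprint library left out of a group, the remaining one was assumed to vary like the other groups.

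Footprints of TIM10 were higher in puf3 cells than in wild type, where 1.01% of all genes tested were called higher. Loss of PUF3 lowered 3 genes in rho0 cells, where 3.18% were called lower. Summed mating type a genes were 2188 to 2582 RPKM in puf3 cells, against 16.8 to 32.4 RPKM in wild type, and their part was not tested. The difference of effects between backgrounds given below rests on the same wild type. TIM10 had 608 and 650 RPKM in puf3 cells, against 319 and 333 RPKM in wild type, a change of 0.94 ± 0.09 on the log2 scale (SE, adjusted p = 0.0023) that missed the threshold without puf3 replicate 1 (0.95) or 2 (0.91). MIA40 had 142 and 151 RPKM in puf3 rho0 cells, against 200 and 246 RPKM in rho0 cells, and fell by 0.76 (SE 0.10, adjusted p = 0.017). TIM54 had 30.0 and 29.0 RPKM in puf3 rho0 cells, against 40.5 and 38.7 RPKM in rho0 cells, and fell by 0.57 (SE 0.12, adjusted p = 0.042). TIM9 had 695 and 729 RPKM in puf3 rho0 cells, against 850 and 897 RPKM in rho0 cells, and fell by 0.46 (SE 0.09, adjusted p = 0.034). The groups of these 3 genes did not overlap. The TIM9 and TIM54 calls ended without any single one of the 4 libraries (-0.45 to -0.47 and -0.50 to -0.64) and the MIA40 call without either puf3 rho0 library (-0.74 and -0.78), and with only the compared groups all 3 calls were lost. Without rescaling (-0.29 and -0.41) and with the replicate number as a block, the TIM9 and TIM54 calls were lost and that of MIA40 was kept. The effect in rho0 minus that in wild type was called negative for TIM10 (-1.06), TIM9 (-0.83) and MIA40 (-0.77), where 1.89% of all genes tested were called lower, and each call ended in some of the single-library omissions (TIM10 without either puf3 library or puf3 rho0 replicate 1, -0.97 to -1.06, TIM9 without any but a wild-type library, -0.77 to -0.85, and MIA40 without any but rho0 replicate 1, -0.66 to -0.79).

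Translational efficiency, the footprint change minus the mRNA change in 1 model, passed the test for few of these genes. The wild types behind it are unlike, since mating type a genes summed to 16.8 to 32.4 RPKM in the footprint wild type and to 566 to 830 RPKM in the mRNA wild type, so that efficiency changes against wild type also hold this difference. In puf3 rho0 against rho0 cells these genes were high on both sides in both kinds of library. By limma 0 of the 9 were called in rho0 cells, where 7.74% of all genes tested were called, and 0 of the 9 in puf3 cells, where 0.592% were called, both against wild type. At an unadjusted p under 0.05 there were 2 in rho0 and 1 in puf3. The share of all genes at that unadjusted threshold was not counted, so these numbers have no background. The efficiency change of TIM10 was 0.28 ± 0.12 in rho0 cells (SE, adjusted p = 0.15) and 0.33 ± 0.12 in puf3 cells (SE, adjusted p = 0.35) on the log2 scale. In rho0 cells TIM10 passed without rescaling (0.41), TIM12 (-0.43) without wild-type mRNA replicate 1 (-0.57), and TIM13 (-0.17) and TIM22 (0.35) without rho0 footprint replicate 2 (-0.41 and 0.65). In puf3 rho0 against rho0 cells 1 of the 9 was called, where 3.17% of all genes tested were called higher. This was TIM12, at 0.63 ± 0.19 (SE, adjusted p = 0.049), with 109 and 106 RPKM of footprints in puf3 rho0 cells, against 68.5 and 82.7 RPKM in rho0 cells. Its call ended with no filter, with a pseudocount of 0.1 and in 8 single-library omissions (0.53 to 0.69), and MIA40 (-0.39) was called without rho0 mRNA replicate 1 (-0.55).

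TIM10 and TIM9, whose products form 1 chaperone, did not keep a fixed mRNA ratio. TIM10 had 1.46 to 2.50 times the RPKM of TIM9 (median 1.80) in the 57 libraries of 18 groups without added copper whose mating type a genes summed to 1000 RPKM or more. The ratio was 1.20 to 1.43 (median 1.30) in the 18 libraries of 6 groups whose sum was below that, so that the ranges did not meet with copper left out. The limit of 1000 RPKM was chosen after the values were seen, and these libraries share genotype and set, so that the split is a description. The 3 libraries with CuSO4, which were set apart, had ratios of 1.13 to 1.23 with sums of 1100 to 1165 RPKM. With them among the libraries at or over the limit, the ranges overlap. Wild type illustrates the spread, with a mean ratio of 1.92 in the Puf3-15A set, 1.74 in the OXPHOS set, 1.63 in the SNF1 set, 1.38 in the INH1 set and 1.35 in the PUF3 set. The highest group means were 2.33 in atp7 puf3, against 1.72 in atp7, and 2.13 in puf3 rho0, against 1.58 in rho0. In footprints the mean ratio was 1.24 in puf3 rho0, 0.980 in rho0, 0.995 in puf3 and 0.677 in wild type. Its neighbour GPA1, a gene of haploid mating, lies 702 bases from TIM10 on the same strand, and stood at 4.92 to 4.97 RPKM in wild type of the INH1 set, against 78.4 to 84.6 RPKM in rho0 cells there. In the OXPHOS set GPA1 had 79.5 to 84.0 RPKM in rho0 cells, against 72.7 to 100 RPKM in wild type. It had 119 to 129 RPKM in puf3 cells, against 29.7 to 40.8 RPKM in wild type of the PUF3 set. In snf1 cells without EB it had 3.93 to 6.68 RPKM, against 107 to 115 RPKM in untreated wild type. TIM10 rose in rho0 cells of the INH1 and OXPHOS sets and in puf3 cells, and fell in snf1 cells. In rho0 cells of the PUF3 set GPA1 had 77.9 to 101 RPKM, above wild type, and TIM10 rose. In rho0 cells of the Puf3-15A set GPA1 had 83.95 to 90.76 RPKM, against 120 to 125 RPKM in wild type, while TIM10 rose. In snf1 cells with EB GPA1 had 5.91 to 8.42 RPKM, against 49.3 to 54.4 RPKM in EB cells, and TIM10 was not called. With CuSO4 GPA1 had 51.2 to 54.5 RPKM, against 71.0 to 75.75 RPKM without it, and TIM10 was not called. A tie between GPA1 and TIM10 was not tested.

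**Figure D5:**
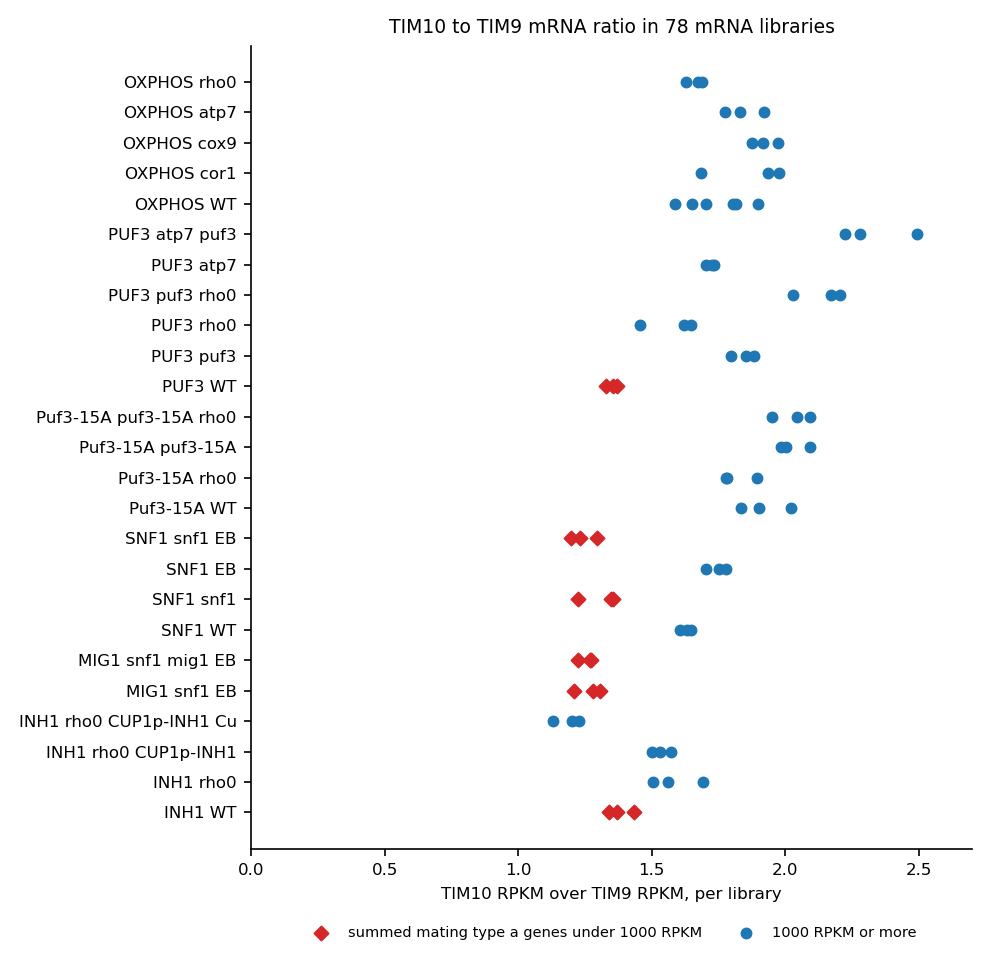
TIM10 RPKM divided by TIM9 RPKM in each of the 78 mRNA libraries, by group; red diamonds mark libraries whose 7 mating type a genes sum to less than 1000 RPKM and blue circles the others. The diamonds lie between 1.20 and 1.43, the circles between 1.46 and 2.50 except in the copper-treated group at 1.13 to 1.23.

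Across the 78 mRNA libraries, after each set was centred on the mean of its groups, the 36 pairs of the 9 genes had correlations of 0.25 (TIM22 and MIA40) to 0.83 (TIM9 and TIM10), with a median of 0.56. The libraries share genotypes and sets, and the values describe these libraries. Among 6047 other features with a mean log2(RPKM + 1) of at least 3, the most similar to MIA40 were MSF1 (r = 0.97), a mitochondrial tRNA synthetase, GUF1 (r = 0.97), a mitochondrial translation factor, and FMC1 (r = 0.97), an assembly factor of the ATP synthase. TIM9 was closest to YEL020C-B (r = 0.99), the feature with the adjoining systematic name that may count the same reads, and then to MRPL7 and MRP4 (r = 0.96 and 0.95), proteins of the mitochondrial ribosome. TIM10 was closest to RDL2, IMG1 and RSM10 (r = 0.87 to 0.89), with mitochondrial ribosomal proteins among them. TIM8 was closest to CMC2, HSP10 and TOM6 (r = 0.90 to 0.91), of which HSP10 encodes the mitochondrial co-chaperonin and TOM6 a subunit of the outer membrane translocase. TIM13 was closest to CNL1, ACP1 and MGR2 (r = 0.84 to 0.85), TIM54 to MDM38, MSS116 and MTO1 (r = 0.85 to 0.86) and ERV1 to GTF1, COA6 and PEX11 (r = 0.78 to 0.80). TIM22 was closest to SSF2, YPR126C and PSH1 (r = 0.78 to 0.79), near the values of ERV1. TIM12 had the weakest likenesses, to INM1, NSE1 and MNL2 (r = 0.70 to 0.74).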

How the data were processed

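The authors deposited RPKM values (reads scaled to gene length and to library size) for 7126 features in 86 libraries, per the file headers. Genome build R64, the aligner STAR 2.6.1a, CASAVA 1.9, edgeR 3.28.1 and the counter featureCounts appear in the submitters' processing notes, without counting settings. RPKM values were whole multiples of the value of 1 read for 96.1 to 97.5% of genes, which gave the depths printed. RPKM is no count, so each set was tested on a log scale in place of the count test foreseen if counts were found.

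Each set was rescaled with unweighted trimmed means of log ratios (30% of ratios and 5% of levels trimmed). Features entered the fit if 3 mRNA libraries of a set, or 2 footprint libraries, the smallest group sizes, reached 1 RPKM. limma 3.58.1 in R 4.3.3 fitted log2(RPKM + 1) with 1 mean per group of the set and a trend of the spread with level, and p-values were adjusted by Benjamini-Hochberg over all features tested. Changes on this scale understate those of low genes, and a change is the value in the first-named group minus that in the second. Rescaling shifted all genes by over 0.1 in snf1 against wild type (0.14), snf1 EB against EB (0.27), INH1 rho0 against wild type (0.11), footprint rho0 against wild type (0.12) and footprint puf3 rho0 against rho0 (0.16), and changes are relative to that shift. Effects were compared between backgrounds by an interaction term, and translational efficiency as the footprint change minus the mRNA change of the PUF3 set in 1 model. The procedure was tested on simulated data. matplotlib 3.10.9 drew the figures, and pandas 2.3.3 with numpy 2.4.6 under Python 3.11.15 made the summaries.

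Replicate numbers of the labels were checked for pairing by the correlation of same-numbered libraries' deviations from their group means. Every pair was above 0.1 in PUF3 rho0 against wild type (0.20 to 0.37) and snf1 mig1 EB against snf1 EB (0.12 to 0.43), where a block on the number changed no call among the 9 genes. The labels say nothing of what the numbers mark. The alternatives were median-ratio size factors, no rescaling, no filter, a pseudocount of 0.1, only the compared groups, the replicate block, use of OXPHOS wild type 1 to 3 or of 4 to 6 without the others, and omission of each library in turn. The 9 genes and the other lists were chosen with earlier results of these data known. All 9 are named, up to 3 called genes of each pathway list with the smallest adjusted p, and the 3 features most like each gene. Of the neighbours by position or by name, only GPA1, YEL020C-B and YGR182C are described. Of the features 6048 matched a locus tag in the RefSeq gene table. No sequences were used here.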

Additional observations from a re-analysis of the deposited data

Results flagged for a closer look

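No library stood apart from its group by Dixon's test in the 9 groups of 4 to 10 values tested, those of wild type in the OXPHOS set. Effects differed between backgrounds, by the interaction term of limma at an adjusted p under 0.05, in 25 of 45 results over 5 interactions. Of all genes tested, 4.98% were called lower for atp7 and puf3, 19.8% for rho0 and puf3, 9.33% for rho0 and puf3-15A and 1.89% in footprints, and 23.0% were called higher for EB and snf1, so that the pooled number has no single background. The values below are the effect in the second background minus that in the first on the log2 scale.

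The effect of PUF3 deletion was more negative in atp7 cells than in wild type for TIM8 (-0.36), TIM9 (-0.58), TIM10 (-0.59), TIM22 (-0.42) and TIM54 (-0.34). It was more negative in rho0 cells than in wild type for TIM8 (-0.47), TIM9 (-0.84), TIM10 (-0.85), TIM12 (-0.60), TIM22 (-0.37) and TIM54 (-0.62). In footprints the same difference was called for TIM9 (-0.83), TIM10 (-1.06) and MIA40 (-0.77). All of these rest on wild-type libraries with low levels of mating type a genes, whose part was not tested.

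The effect of puf3-15A was more negative in rho0 cells than in wild type for TIM8 (-0.38), TIM9 (-0.33), TIM10 (-0.25), TIM54 (-0.17) and MIA40 (-0.21), with mating type a genes high in all 4 groups, and with 6 of 10 stress genes and 6 of 10 ribosome biogenesis genes also called. The effect of EB was more positive without SNF1 than with it for TIM8 (0.34), TIM9 (0.63), TIM10 (0.45), TIM12 (0.82), TIM22 (0.58) and TIM54 (0.46). There the snf1 libraries had low mating type a genes and the others high ones, and stress genes rose in both backgrounds.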

How the results depend on the processing

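Footprint results rest on 2 libraries a group and 26 to 157 reads for TIM12, TIM13, TIM22 and ERV1. Counting error is not part of the RPKM fits.

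Among results of single genes, 283 of 288 kept direction and side of the threshold with median-ratio size factors, 287 with a pseudocount of 0.1, 281 with no filter and 256 without rescaling. Without rescaling 3 others reversed: TIM10 (0.26) and TIM13 (0.21) in snf1 EB against EB and TIM10 (0.058) with CuSO4. With only the compared groups 189 of 207 did so, with the replicate block 254 of 261, and with one library left out 1971 of 2124. No cause was tested.

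Wild-type libraries 4 to 6 alone gave 3 calls in cor1 and 2 in cox9, and medians of -0.084 in cox9, 0.16 in atp7 and 0.44 in rho0. Without rescaling the medians over the 9 genes were 0.20 in OXPHOS atp7, 0.56 in OXPHOS rho0, 0.39 in PUF3 atp7, 0.11 in puf3, -0.20 in puf3 rho0, -0.37 for its interaction, 0.055 in snf1, -0.066 with EB, 0.51 in snf1 EB against EB, 0.32 in snf1 EB against snf1, 0.12 in snf1 mig1 EB, 0.28 in INH1 rho0, 0.43 with CuSO4, 0.079 for footprints of puf3 rho0, -0.36 for their interaction and 0.19 for its efficiency. The calls then numbered 2 in atp7 puf3, 3 in snf1, 9 in snf1 EB against EB, 0 in snf1 mig1 EB, 2 for CUP1p-INH1, 1 for footprints of puf3 rho0, 1 for their interaction and 1 for efficiency in rho0. No filter gave 2 calls in atp7 puf3 and 0 for efficiency in puf3 rho0, and a pseudocount of 0.1 gave 0 for that efficiency. With only the compared groups calls numbered 3 in PUF3 rho0, 4 in atp7 puf3, 3 in puf3 rho0, 2 in snf1, 0 for CUP1p-INH1 and 0 for footprints of puf3 rho0, and the median in snf1 EB against snf1 was 0.31. Median-ratio size factors gave 3 calls for the puf3-15A interaction and 0 for CUP1p-INH1, and medians of 0.031 with EB and 0.29 in snf1 EB against snf1. The replicate block gave a median of 0.55 in OXPHOS rho0 and 1 call for footprints of puf3 rho0. In OXPHOS rho0 against atp7 it added TIM13 (0.15) and in the puf3-15A interaction TIM12 (-0.37), and it ended the calls of TIM54 in puf3 (0.15) and of MIA40 in the puf3-15A (-0.21) and footprint (-0.77) interactions. Outside the 2 comparisons of the pairing check some same-numbered pairs were also above 0.1, as in snf1 EB against snf1 (0.0995 to 0.399). What the samples of 1 number share was not given.

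With one library left out, calls ranged from 3 to 4 in OXPHOS atp7, 8 to 9 in OXPHOS rho0, 4 to 6 in rho0 against atp7, 5 to 7 in PUF3 atp7, 6 to 8 in PUF3 rho0, 2 to 6 in puf3, 3 to 5 in puf3 rho0, 3 to 6 for the atp7 and puf3 interaction, 6 to 7 in Puf3-15A rho0, 5 to 6 in puf3-15A rho0 and 2 to 5 for its interaction. They ranged from 4 to 5 with EB and in snf1 EB against EB, 5 to 6 in snf1 EB against snf1 and for the interaction, 2 to 5 in snf1 mig1 EB and 0 to 2 for CUP1p-INH1. For footprints they ranged from 3 to 4 in rho0, 0 to 1 in puf3 and in puf3 rho0, 0 to 2 for the interaction, and 0 to 2 for efficiency in rho0 and in puf3 rho0. The medians ranged from -0.072 to -0.0077 in cor1, -0.053 to -0.011 in cox9, 0.070 to 0.13 in OXPHOS atp7, 0.39 to 0.52 in OXPHOS rho0, 0.22 to 0.31 in rho0 against atp7, 0.23 to 0.40 in PUF3 atp7, 0.29 to 0.42 in PUF3 rho0, 0.12 to 0.25 in puf3, -0.16 to -0.020 in atp7 puf3, -0.25 to -0.20 in puf3 rho0, -0.40 to -0.31 and -0.53 to -0.42 for the atp7 and rho0 interactions with puf3. They ranged from 0.24 to 0.35 in Puf3-15A rho0, -0.16 to -0.073 in puf3-15A, -0.26 to -0.22 in puf3-15A rho0, -0.25 to -0.19 for its interaction, -0.087 to -0.013 in snf1, -0.020 to 0.049 with EB, 0.17 to 0.31 in snf1 EB against EB, 0.24 to 0.30 in snf1 EB against snf1, 0.40 to 0.49 for the interaction, 0.18 to 0.23 in snf1 mig1 EB, 0.17 to 0.21 in INH1 rho0, 0.029 to 0.064 for CUP1p-INH1 and 0.34 to 0.37 with CuSO4. For footprints the medians ranged from 0.29 to 0.64 in rho0, 0.11 to 0.26 in puf3, -0.14 to -0.033 in puf3 rho0 and -0.66 to -0.36 for the interaction, and for efficiency from -0.13 to 0.053 in rho0, 0.074 to 0.19 in puf3 and 0.046 to 0.19 in puf3 rho0.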
